A study of Mus musculus with 12 samples.

Results

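Ctss, Ctsl, Ctsh, Cybb, Ncf4, Slc11a1 and Cd63 encode proteins of the phagosome and the lysosome, and these 7 genes were described across all 12 tumors of the series. They were chosen by symbol, as the 7 phagosome protease and oxidase genes among the 770 genes of the panel, and all 7 were measured. The tumors came from A20 cells, a B-cell lymphoma line of the BALB/c strain, of which 5000000 were implanted under the skin of female Balb/c mice aged 7 to 8 weeks. About 7 days later the tumors were injected with PBS, with GLA-SE (10 µg of GLA, a synthetic lipid A that activates TLR4, in 50 µl of a 2% stable emulsion) or with SE, the emulsion without GLA. Each group held 4 tumors from 4 mice, which received 3 injections every other day and were collected 2 h after the last. RNA of the whole tumor was counted with the nCounter mouse PanCancer Immune panel, which counts barcoded probes bound to each transcript. No cells were sorted, so lymphoma cells and host cells of the tumor contributed to each value, and a change in the number of cells of a type cannot be told apart from a change in RNA per cell.

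When a phagocyte takes up a particle, the vesicle that holds it fuses with lysosomes and becomes acidic, and its contents are digested by cathepsins, proteases of the endosome and lysosome. The NADPH oxidase, assembled on the same membrane, passes electrons to oxygen and makes superoxide. Macrophages, dendritic cells and B cells also use cathepsins to prepare peptides for class II molecules, and Ctss cuts the invariant chain that holds the class II groove before a peptide is loaded. Balb/c mice carry a loss-of-function allele of Slc11a1, so that its transcript can be counted in this strain while the transporter does not work.

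The promoters of Ctss, Ctsl and Cybb are shown because they differ in short motifs that are known from myeloid, interferon and lysosomal genes. They run from 250 bases before to 50 bases after the transcription start in RefSeq on GRCm38.p6, and 5 of the 7 members had an entry. The motifs were chosen after the sequences were seen, searched on both strands, and are in capitals: GAGGAA, the core bound by PU.1 and other ETS factors, GAAA followed after any 2 bases by a second GAAA, a form of the interferon-stimulated response element, and CACGTG, the E-box core that TFEB and TFE3 bind in lysosomal genes. No match overlapped another motif.
Ctss, chr3:95526536-95526835, plus strand: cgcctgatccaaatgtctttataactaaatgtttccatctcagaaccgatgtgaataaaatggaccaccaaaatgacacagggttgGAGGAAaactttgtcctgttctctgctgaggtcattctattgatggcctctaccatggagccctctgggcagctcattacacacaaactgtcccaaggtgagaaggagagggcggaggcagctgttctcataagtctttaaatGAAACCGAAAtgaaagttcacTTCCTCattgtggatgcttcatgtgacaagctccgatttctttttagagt
Ctsl, chr13:64370471-64370770, minus strand: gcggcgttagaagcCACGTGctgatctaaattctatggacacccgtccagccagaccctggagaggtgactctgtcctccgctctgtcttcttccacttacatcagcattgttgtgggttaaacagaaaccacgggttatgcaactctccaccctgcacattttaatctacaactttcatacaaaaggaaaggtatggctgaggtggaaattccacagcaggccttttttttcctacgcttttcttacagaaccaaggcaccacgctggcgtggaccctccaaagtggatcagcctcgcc
Cybb, chrX:9469275-9469574, minus strand: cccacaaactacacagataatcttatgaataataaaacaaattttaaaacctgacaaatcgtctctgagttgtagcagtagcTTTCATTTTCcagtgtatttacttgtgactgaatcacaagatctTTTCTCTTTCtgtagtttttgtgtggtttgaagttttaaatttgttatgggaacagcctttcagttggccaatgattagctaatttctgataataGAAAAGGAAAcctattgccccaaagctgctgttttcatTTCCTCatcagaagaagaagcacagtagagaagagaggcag

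The Ctss promoter held GAGGAA at 2 positions and the paired GAAA motif at 1, the latter 21 bases before the start. The Cybb promoter held GAGGAA at 1 position and the paired GAAA motif at 3, and the Ctsl promoter held CACGTG at 1 position. Among the promoters not shown, Slc11a1 had 1 match to GAGGAA and Cd63 had 2. Of all 32851 promoters of the same length, 28.3% held GAGGAA, 3.44% held the paired GAAA motif and 7.15% held CACGTG. A match describes the letters of the window and does not show that a factor was bound there.

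Total counts lay between 810260 and 1612415 per tumor. Counts were divided by the geometric mean of 16 reference genes in the tumor, relative to that of all tumors, and the result is called the normalized count. SE replicate 4 stood apart, with a geometric mean of 927 counts over these reference genes against 1501 to 2806 in the other 11 tumors. The 8 B-cell markers, which check for the implanted lymphoma, were counted in every tumor, with a sum of 14090.1 to 23283 normalized counts. The summed markers of monocytes and macrophages ran from 4768 to 5829 in PBS tumors and from 13093 to 21468 in GLA-SE tumors, and SE replicates 3 and 4 (14115 and 21328) lay apart from replicates 1 and 2 (4614 and 4336). The summed neutrophil markers ran from 1664 to 11808 in GLA-SE tumors, with the highest in replicate 3, and from 458 to 550.1 in PBS tumors. Values without SE replicate 4 or GLA-SE replicate 3 are given beside the results that these tumors moved most.

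Cathepsin S (Ctss), an endopeptidase that stays active at neutral pH, had normalized counts of 8306, 6505, 7546 and 7611 in PBS replicates 1 to 4 and of 17836, 19856, 25129 and 18772 in the GLA-SE replicates. The SE replicates had 8557, 7383, 20252 and 23297. Every GLA-SE tumor was above every PBS tumor, whereas the SE group split into 2 tumors at the level of PBS and 2 at the level of GLA-SE. For SE replicate 4 this depends on the scaling, as its count before scaling (11549) was below that of SE replicate 1 (12847). The mean rose from 7492 ± 742 (SD, n = 4) in PBS to 20398 ± 3260 in GLA-SE tumors, a log2 fold change of 1.45 with a standard error of 0.13 and an adjusted p of 0.000157 by edgeR's quasi-likelihood test.

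Cathepsin L (Ctsl), a lysosomal endopeptidase of most cell types, had 902, 720.2, 529.7 and 851 normalized counts in PBS and 2092, 2266, 3754 and 2114 in GLA-SE tumors. In the SE replicates it had 566, 539.8, 5063 and 10723. GLA-SE and PBS did not overlap, and SE replicates 3 and 4 were above all 4 GLA-SE tumors while replicates 1 and 2 were within the PBS range. From PBS to GLA-SE Ctsl rose by 1.77 on the log2 scale (standard error 0.24, edgeR adjusted p = 0.000489). The highest SE tumor had 19.9 times the count of the lowest, the widest range of any member within a group.

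Cathepsin H (Ctsh), an aminopeptidase, was the most even of the members, at 2990.0, 2945, 2885 and 3083 normalized counts in PBS tumors. The GLA-SE tumors had 4164, 4418, 4962 and 3988, and the SE tumors 3301, 2806, 3839 and 4970.4. GLA-SE was above PBS in every tumor, and the SE tumors lay across both groups. The log2 fold change from PBS to GLA-SE was 0.56 with a standard error of 0.09 and an edgeR adjusted p of 0.00115. The direction turned with scalings set by the panel itself, at -0.36 with TMM, -0.30 with DESeq2's size factors and -0.74 with the panel median.

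The oxidase was represented by Cybb, the membrane subunit that carries the electrons, and by Ncf4, the cytosolic subunit that binds the phosphoinositide of the phagosome. Cybb had 3269, 2713, 2921 and 3277 normalized counts in PBS, 6565, 6688, 10794 and 6474 in GLA-SE, and 3482, 3199, 4941 and 4244 in SE tumors. All GLA-SE values were above all values of the other groups, and GLA-SE replicate 3 was the highest by far. The mean was 3045 ± 277 (SD, n = 4) in PBS, 7630.2 ± 2111 in GLA-SE and 3967 ± 785 in SE tumors. Cybb rose by 1.33 on the log2 scale from PBS to GLA-SE (standard error 0.18, edgeR adjusted p = 0.000489), and by 1.11 without GLA-SE replicate 3 (edgeR adjusted p = 6.29e-05).

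Ncf4 had 1559.9, 1687, 1313 and 1609.7 normalized counts in PBS, 2161, 2365, 3238 and 2345 in GLA-SE, and 1441, 1386, 1603 and 2059.6 in SE tumors. The lowest GLA-SE tumor was above the highest tumor of either other group. The mean was 1542 ± 162 (SD, n = 4) in PBS, 2527 ± 483 in GLA-SE and 1622 ± 306 in SE tumors. The log2 fold change from PBS to GLA-SE was 0.71 (standard error 0.15, edgeR adjusted p = 0.00339), but it was -0.22 after scaling by TMM, -0.15 with DESeq2's size factors and -0.60 after scaling to the panel median.

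Slc11a1, whose product pumps divalent metal ions out of the phagosome, had normalized counts of 259.7, 148, 155 and 205 in PBS tumors. It had 513, 659, 880.0 and 634 in GLA-SE tumors and 204, 124, 573 and 718 in SE tumors. The GLA-SE tumors were all above the PBS tumors, and SE replicates 3 and 4 were within the GLA-SE range. From PBS to GLA-SE it rose by 1.81 on the log2 scale (standard error 0.24, edgeR adjusted p = 0.000428), which was within its standard error of the rise of Ctsl.

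Cd63, a tetraspanin of late endosomes, lysosomes and secretory granules, had 2654, 2134, 2195 and 2364 normalized counts in PBS and 4816, 6512, 6997 and 5109 in GLA-SE tumors. In the SE replicates it had 1966, 1844, 5991 and 12154. SE replicate 4 had the highest count of all 12 tumors and SE replicates 1 and 2 the lowest, below every PBS tumor. From PBS to GLA-SE it rose by 1.33 on the log2 scale (standard error 0.14, edgeR adjusted p = 0.000233).

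**Figure D1:**
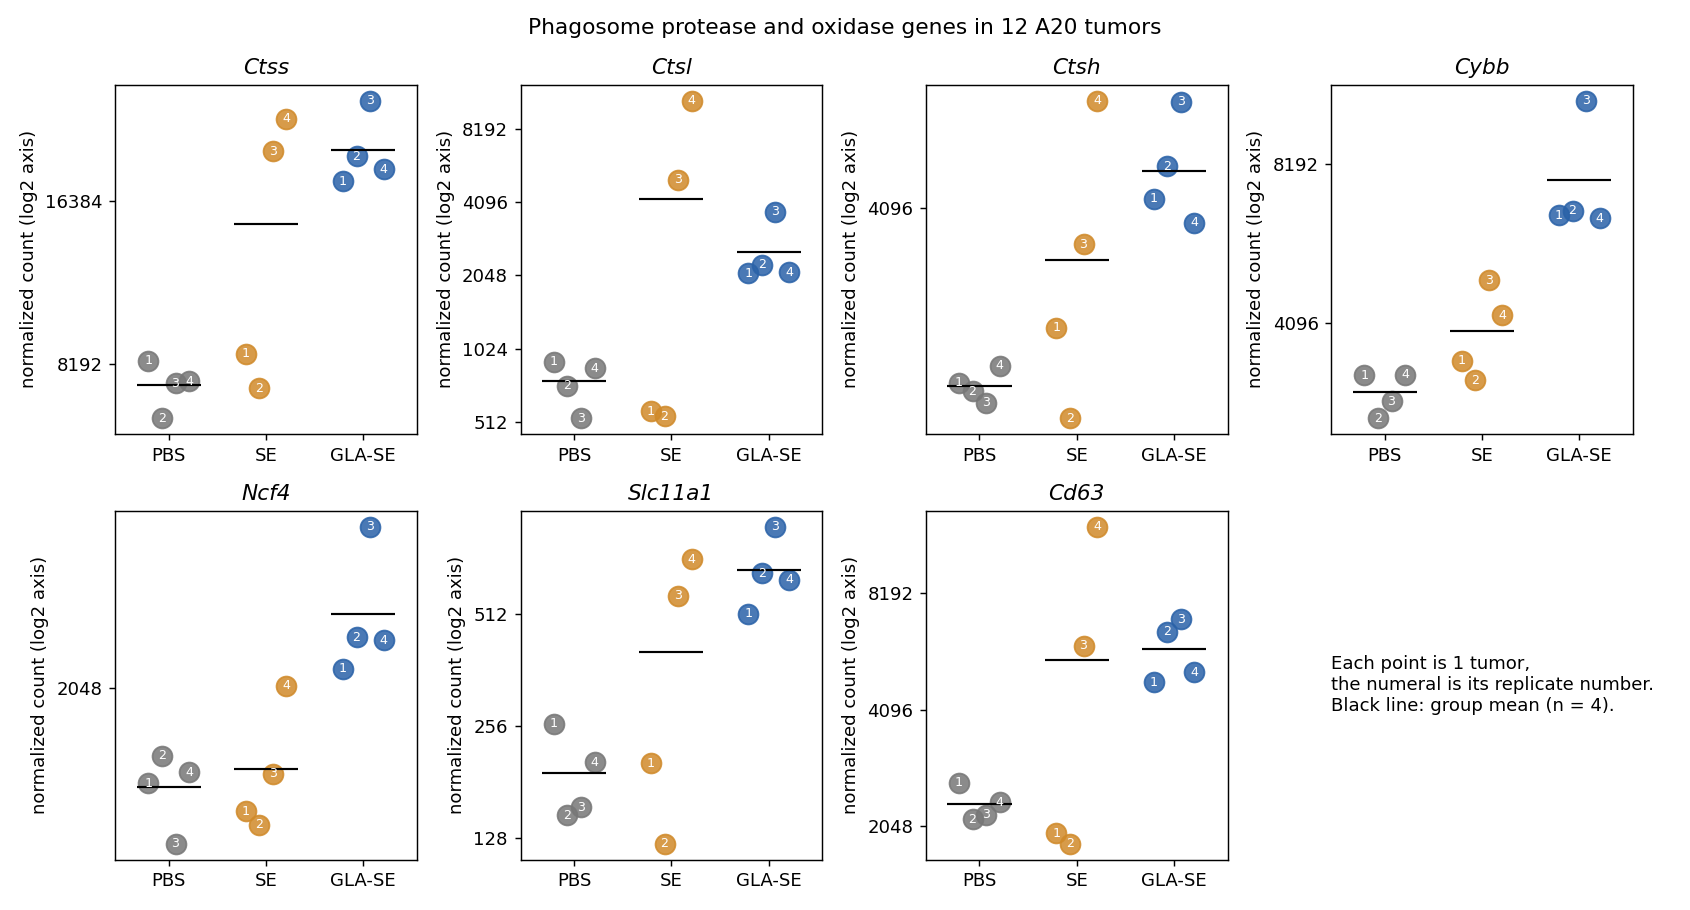
Normalized count of each member in each tumor (points, with the replicate number inside; log2 axis, a separate range per gene) for the PBS, SE and GLA-SE groups, with a line at the mean of 4 tumors. The 4 GLA-SE tumors lie above the 4 PBS tumors in every panel on this reference gene scale (Ctsh and Ncf4 turn under TMM, DESeq2's own and panel median scaling), SE replicates 3 and 4 lie apart from replicates 1 and 2 for Ctss, Ctsl, Slc11a1 and Cd63, and Cybb and Ncf4 in SE tumors stay below the GLA-SE tumors.

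The comparison of GLA-SE with PBS asked how the injected tumor responds to the agonist in its emulsion. On the reference gene scale all 7 members rose (edgeR adjusted p under 0.05), where 68.8% of the 750 genes tested were called, and 68.4% were called higher. All 7 also had every GLA-SE tumor above every PBS tumor, as did 63.7% of all genes, and each gave an exact two-sided permutation p of 0.0286, the smallest that 4 tumors against 4 allow. The count of members was thus read against a panel in which most genes were called. The median log2 fold change was 1.33 over the members and 0.90 over all 750 genes. Slc11a1, Ctsl, Ctss, Cd63 and Cybb were above the median of the panel, and Ncf4 and Ctsh were below it.

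The markers of monocytes and macrophages moved with the members in this comparison. All 8 were called higher on the reference gene scale, with a median log2 fold change of 1.43, and no marker was at 0 in any group. The count fell to 5 of 8 with TMM or DESeq2's size factors and to 1 of 8 with the panel median. The 8 markers of endothelium and fibroblasts were also called higher on the reference gene scale, with sums of 4049 to 9185 in PBS and 18094 to 26385 in GLA-SE tumors. With TMM or DESeq2's size factors 2 of these 8 were called higher, and with the panel median 0 were higher and 1 lower. Of the 8 B-cell markers 2 were called lower on the reference gene scale (Cd79b and Ms4a1, named after their values were seen), 7 with TMM or DESeq2's size factors and 8 with the panel median. Of the 6 neutrophil markers 4 were called higher on the reference gene scale, and 4 were with TMM or DESeq2's size factors, while the panel median gave 3 higher and 2 lower. On the reference gene scale 3 of 7 T cell, 3 of 4 NK cell, 4 of 5 mast cell and 1 of 4 dendritic cell markers were called higher, and with TMM, DESeq2's size factors or the panel median 0 of each. With each of these scalings 1 NK cell marker was called lower, and no T cell or mast cell marker was. Of the dendritic cell markers 2 were called lower with TMM or DESeq2's size factors and 3 with the panel median. The part of these cells in the members' change was not tested.

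Scaling set how many members were called. TMM moved the median of all genes from 0.90 to -0.01 and DESeq2's size factors moved it to 0.05, with 5 members called higher in each case (Ctss, Ctsl, Cybb, Slc11a1 and Cd63) and 1 called lower (Ctsh). Of all 750 genes TMM called 148 higher and 168 lower, and DESeq2's size factors 193 higher and 153 lower. With the panel median, which moved the median of all genes to -0.40, Slc11a1 (0.52) and Ctsl (0.46) were called higher and Ctsh (-0.74) and Ncf4 (-0.60) lower, while Ctss (0.14), Cd63 (0.02) and Cybb (0.01) were not called. Of all genes the panel median called 61 higher and 307 lower. From PBS to GLA-SE a change of scaling moves every gene by nearly the same amount, so the order of the members is not a separate result. The moves were less even where SE tumors entered. From PBS to SE the panel median moved Ctsl from 2.491 to 1.325 and Ncf4 from 0.073 to -0.35.

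**Figure D2:**
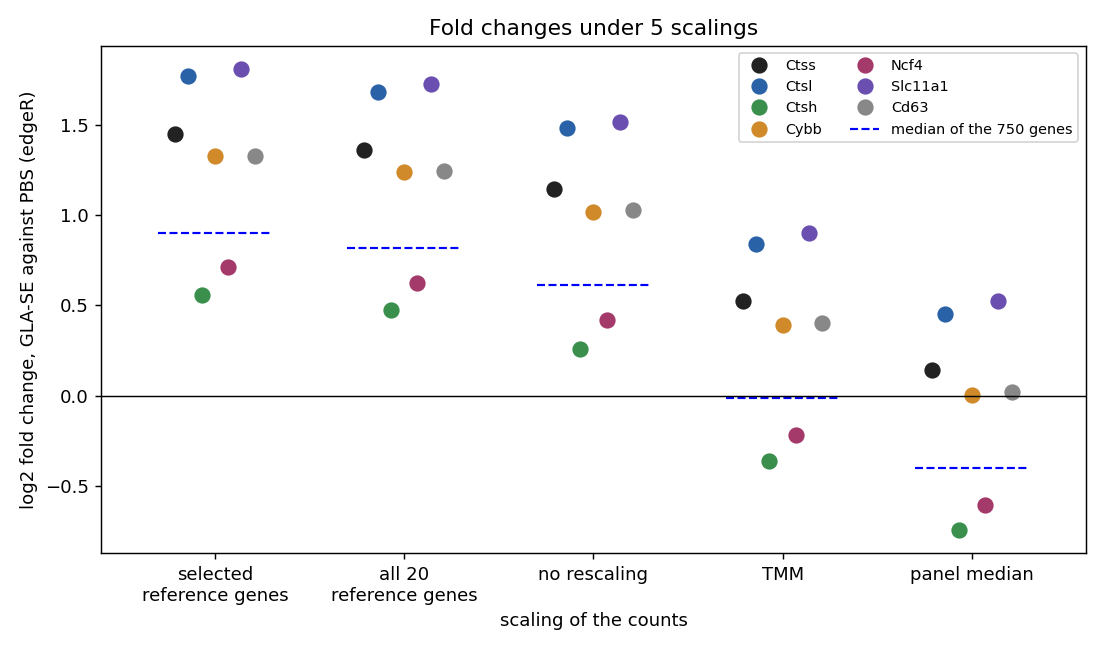
Log2 fold change of each member from PBS to GLA-SE (points, edgeR) under 5 scalings of the counts, with the median of the 750 genes as a dashed line. In this comparison a scaling moves all genes together, so that the members move down with the median of the panel. Ctsh goes from 0.56 on the selected reference genes to -0.36 under TMM and Ncf4 from 0.71 to -0.22.

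The comparison of SE with PBS asked what the emulsion did without GLA. None of the 7 members was called, nor was any of the 750 genes tested by edgeR (0%), while 134 genes (17.9%) and 3 members, Ctsl, Ctss and Cybb, had an unadjusted p under 0.05. DESeq2 called 53 genes with the reference gene size factors and 12 with its own and limma called 0, and no member was called by any of them. All 7 members overlapped between the groups, and 9.2% of all genes did not. The log2 difference of Ctsl was 2.49 with a 95% confidence interval from 0.33 to 4.66 and that of Cd63 was 1.23 with an interval from -0.11 to 2.57, so that differences as large as those from PBS to GLA-SE were within reach. For Ctss the interval ran from 0.12 to 1.86 and for Slc11a1 from -0.20 to 2.34. The intervals of Ctsh, Ncf4 and Cybb were narrower. Ctsh had a difference of 0.33 with an interval from -0.08 to 0.73, Ncf4 had a difference of 0.07 with an interval from -0.30 to 0.44 (edgeR adjusted p = 0.765), and Cybb had 0.38 with an interval from 0.01 to 0.75 (edgeR adjusted p = 0.256). Without SE replicate 4 the difference of Ctsl was 1.45 and that of Cd63 was 0.48. It was 0.69 for Ctss and 0.64 for Slc11a1, against 0.99 and 1.07 with all tumors, and 0.16 for Ctsh, 0.35 for Cybb and -0.06 for Ncf4.

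The 2 SE tumors with high Ctss, Ctsl, Slc11a1 and Cd63 were also high in markers of host cells. The summed markers of endothelium and fibroblasts were 27968 in SE replicate 3 and 119402 in replicate 4, against 3479 and 4346 in replicates 1 and 2. The mast cell markers summed to 529 and 2848 against 109 and 113. Whether these cells carried the members' transcripts was not tested.

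The comparison of GLA-SE with SE set the agonist against its carrier. It shares the GLA-SE tumors with the first comparison and the SE tumors with the second. No member was called by edgeR, where 16 genes (2.13%) were called, all higher, and 2 members, Cybb and Ncf4, had an unadjusted p under 0.05, as did 18.5% of all genes. For these 2 oxidase genes every GLA-SE tumor was above every SE tumor, which held for 14.7% of all genes. The log2 difference of Cybb was 0.94 with a 95% confidence interval from 0.40 to 1.49 and an edgeR adjusted p of 0.0889, and that of Ncf4 was 0.64 with an interval from 0.17 to 1.11 and an edgeR adjusted p of 0.156. Without SE replicate 4 both were called, Cybb at 0.98 (edgeR adjusted p = 0.0481) and Ncf4 at 0.78 (edgeR adjusted p = 0.0322). That fit called 105 of all genes, against 16 with all 8 tumors. DESeq2 with the reference gene size factors called both with all 8 tumors (adjusted p = 0.00156 and 0.0122), and 119 of all genes. With TMM the differences were 0.47 for Cybb and 0.18 for Ncf4, and with DESeq2's own size factors 0.38 and 0.10. With the panel median they were 0.03 and -0.25. Neither gene was called with any of these scalings.

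The proteases and vesicle proteins overlapped between GLA-SE and SE. The log2 difference was 0.46 for Ctss (95% confidence interval -0.44 to 1.35), 0.23 for Ctsh (-0.24 to 0.70) and 0.73 for Slc11a1 (-0.50 to 1.96). For Cd63 it was 0.09 with an interval from -1.25 to 1.43. For Ctsl it was -0.72 with an interval from -2.78 to 1.33, and it was 0.32 without SE replicate 4. Without that tumor the difference was 0.84 for Cd63, 0.76 for Ctss, 0.40 for Ctsh and 1.16 for Slc11a1, and edgeR called none of these 5 genes. Intervals this wide do not show that the agonist and its carrier act alike on these genes.

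**Figure D3:**
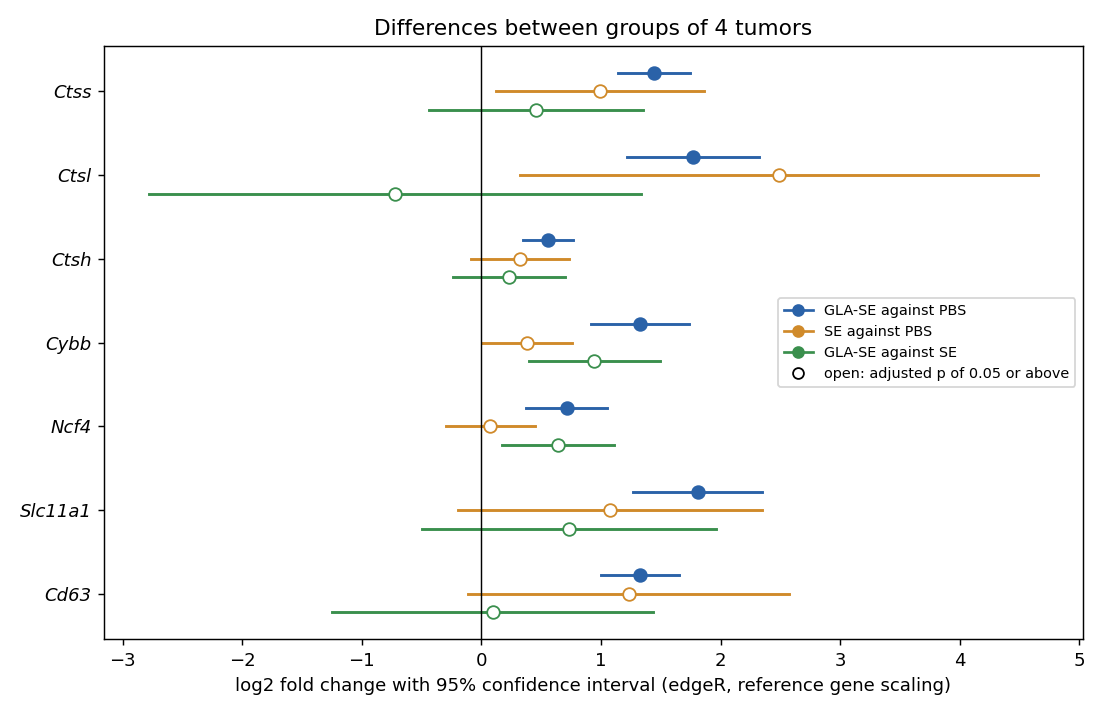
Log2 fold change of each member (points) with its 95% confidence interval (bars) in the 3 comparisons of 4 tumors with 4, from edgeR on the reference gene scale, open where the adjusted p was 0.05 or above. All 7 members are called in GLA-SE against PBS (Ctsh and Ncf4 turn to -0.36 and -0.22 under TMM, and also turn with DESeq2's size factors and the panel median), none in the other comparisons, and the bars of Ctsl and Cd63 are the widest wherever SE tumors enter.

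Within a tumor 14 ratios were taken with no test, 7 between 2 members and 7 of a member to the monocyte and macrophage markers. The ratios between 2 members do not depend on the scaling. Those to the markers used log2(normalized count + 1), so that the scaling enters them through the added 1. The log2 ratio of Cybb to Ctsh was -0.12 to 0.13 in PBS tumors, -0.23 to 0.36 in SE tumors and 0.60 to 1.12 in GLA-SE tumors. The GLA-SE group was thus above both other groups. Ctsh had the smallest rise of the members from PBS to GLA-SE, at 0.56 beside a median of 0.90 for all genes. A gene that rises with the panel therefore also rises relative to Ctsh. The share of all genes without overlap on the ratios between 2 genes was not taken. The ratio of Ncf4 to Ctsh was above SE but not above PBS, with a mean of -0.81 in GLA-SE, -1.19 in SE and -0.95 in PBS tumors. The ratio of Ctss to Ctsh was 1.14 to 1.47 in PBS and 2.10 to 2.34 in GLA-SE tumors, and SE replicates 3 and 4 (2.40 and 2.23) were at the GLA-SE level while replicates 1 and 2 (1.37 and 1.40) were at that of PBS. The ratio of Ctsl to Ctsh was highest in SE replicates 3 and 4, at 0.40 and 1.11, against -0.99 to -0.40 in GLA-SE and -2.45 to -1.73 in PBS tumors. Within the oxidase, the ratio of Cybb to Ncf4 was 0.69 to 1.15 in PBS and 1.47 to 1.74 in GLA-SE tumors without overlap, and SE tumors (1.04 to 1.62) overlapped both.

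**Figure D4:**
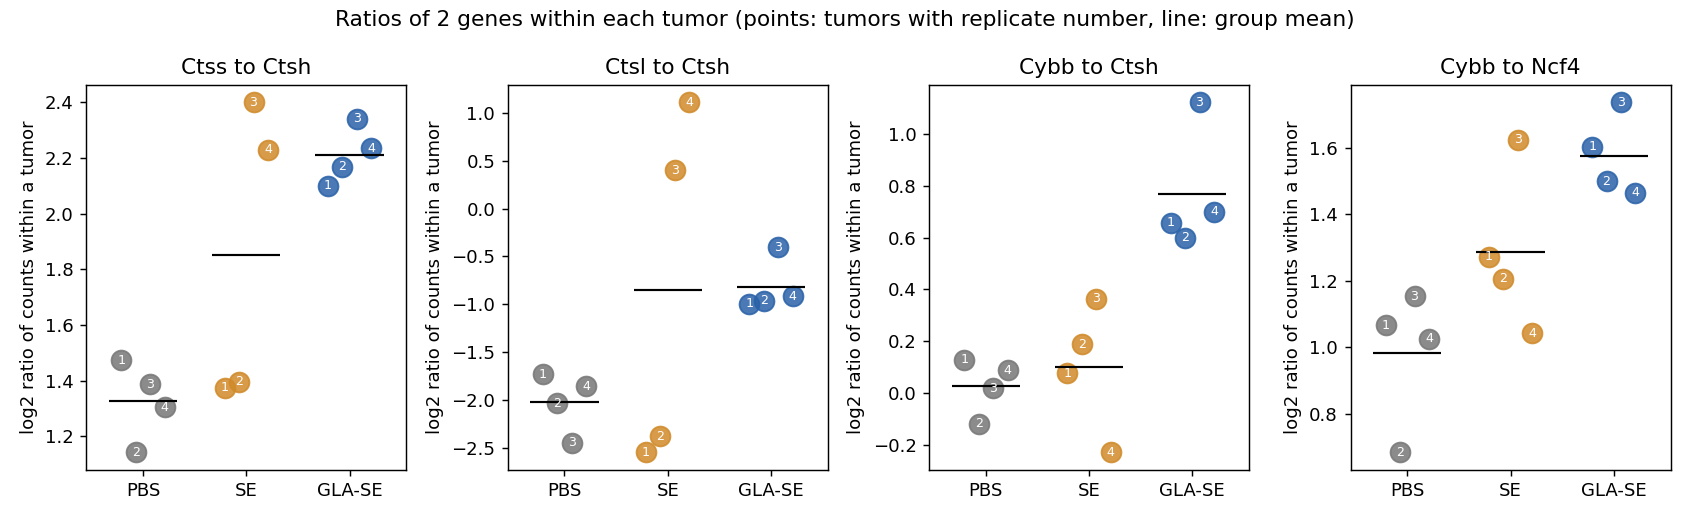
Log2 ratio of the counts of 2 members within each tumor (points, with the replicate number; lines at the mean of 4 tumors) for 4 pairs of genes. Cybb to Ctsh places all 4 GLA-SE tumors (0.60 to 1.12) above all PBS and SE tumors, while Ctsl to Ctsh places SE replicates 3 and 4 (0.40 and 1.11) above every GLA-SE tumor. The share of all genes that separate in this way relative to Ctsh was not taken.

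The members were also set against the mean log2 level of the 8 monocyte and macrophage markers in the same tumor. Ctsh, Ncf4 and Cybb were lower relative to these markers in every GLA-SE tumor than in any PBS tumor, by mean log2 differences of -1.03, -0.89 and -0.29. For Cybb the gap was small, with 2.63 to 2.99 in GLA-SE and 3.02 to 3.42 in PBS tumors. The 2.99 was in GLA-SE replicate 3. There the marker Cd14 had 6806 normalized counts, against 369 to 1168 in the other GLA-SE tumors and 129 to 211 in PBS tumors. This count lowers the ratio in that tumor, and whether Cybb separates the groups without Cd14 was not tested. Ctss (-0.15), Cd63 (-0.27), Ctsl (0.16) and Slc11a1 (0.23) overlapped between the groups, although the mean difference of Cd63 was close to that of Cybb. The share of all genes without overlap on this ratio was not taken. On the reference gene scale these markers rose by a median of 1.43 and all genes by 0.90. The ratios use the mean log2 level of the markers, not this median. In SE tumors Ctsl relative to these markers was above PBS in all 4 tumors, at 1.28 to 2.61 against 0.96 to 1.19. In SE replicates 1 and 2 Ctsl itself was within the PBS range (566 and 539.8). The summed markers (4614 and 4336) were below those of every PBS tumor (4768 to 5829). The ratios of Ctss, Ctsh, Cybb, Ncf4 and Cd63 in these 2 tumors were also above every PBS tumor. Cd63 relative to these markers was lower in all GLA-SE tumors than in any SE tumor, by a mean of -0.45.

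The genes whose pattern over the 12 tumors was closest to each member were found by the root mean square difference of centred log2 normalized counts among 673 genes. For Ctss they were C1qa (0.103), Cfp (0.151) and C1qb (0.163), against a standard deviation of 0.77 of Ctss itself. For Slc11a1 they were Fcer1g (0.129), Oas2 (0.207) and Il15ra (0.212), and for Cd63 Colec12 (0.119), App (0.125) and Cd84 (0.138). Nearest to Ctsl, which varied most (standard deviation 1.43), were Trem2 (0.284), Col1a1 (0.336) and Lrp1 (0.341). Nearest to Cybb were Hif1a (0.115), Jak3 (0.126) and H2-Eb1 (0.156), and nearest to Ncf4 were Tlr1 (0.117), Lcp1 (0.139) and Mapkapk2 (0.144). Ctsh, which varied least, was closest to Tbk1 (0.0634), Ikbkb (0.0860) and Tgfb1 (0.0996). All tumors share their scaling factor across genes, which is part of this likeness.

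Other genes of the same pathways were taken as 8 lists, whose counts from PBS to GLA-SE are read beside the 68.4% of all genes that were called higher on the reference gene scale. Of 8 lysosomal and endosomal proteins 7 were called higher from PBS to GLA-SE on the reference gene scale, with a median log2 fold change of 1.05 beside 0.90 for all genes. With TMM 3 were higher and 1 lower, and with the panel median 0 were higher and 2 lower. Lyz2, the lysozyme of macrophages, rose by 1.52, Litaf by 1.51, Cd68, a heavily glycosylated protein of macrophage lysosomes, by 1.37 and Cd164 by 0.29. The membrane proteins Lamp1 (0.96) and Lamp2 (1.12) also rose, and the exception, Lamp3, had means of 14.1 in PBS and 19.99 in GLA-SE tumors (these 3 were named after their values were seen).

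Of 4 other cathepsins and azurophil granule enzymes, Ctsw, a cathepsin of cytotoxic lymphocytes, was called, with a rise of 1.21, and it was not called higher with TMM, DESeq2's size factors or the panel median. Of the 4 genes 1 was called lower with TMM or DESeq2's size factors and 3 with the panel median. Mpo, the myeloperoxidase of neutrophil granules, had 36.6 ± 5.27 (SD, n = 4) in PBS and 35.9 ± 8.26 in GLA-SE tumors, a log2 difference of -0.02 (edgeR adjusted p = 0.921). The means of Ctsg and Elane, also granule proteases, were 10.1 to 15.9 in both groups, and counts this low limit what a test can call.

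All 14 phagocytic receptors rose on the reference gene scale, with a median log2 fold change of 1.68, and 11 were called higher with TMM, 12 with DESeq2's size factors and 7 with the panel median. They were led by the Fc receptors Fcgr1 (2.62) and Fcgr4 (2.47) and by the scavenger receptor Marco (2.60), and the smallest rise was that of Cd36 (1.03). Marco had only 15.1 to 17.7 normalized counts in PBS tumors and 56.2 to 172 in GLA-SE tumors, so that its rise starts from a low count. All 7 kinases upstream of the oxidase were called higher on the reference gene scale, with a median of 0.86 beside 0.90 for all genes. However, 1 was higher and 1 lower with TMM, and 1 was higher and 4 lower with the panel median. Syk, which relays signals from Fc receptors, rose by 0.98 and Pik3cd by 0.40. The adaptor Card9, which is in this list although it is not a kinase, rose by 0.88 from 11.1 to 15.3 normalized counts in PBS tumors, also a low level.

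The 9 genes of class II loading were called higher on the reference gene scale with a median of 0.95, near that of all genes. None was called with TMM, and 4 were called lower with the panel median. Ciita, the coactivator of class II genes, rose by 1.16, H2-Eb1 by 1.15, H2-Ab1 by 1.08 and H2-Ob by 0.54. Of 7 lysosome regulators and autophagy genes 5 were called higher with a median of 0.39, below that of all genes. With TMM 0 were higher and 4 lower, and with the panel median all 7 were lower. Atg7 rose by 0.76, Tfe3, a transcription factor of lysosomal genes, by 0.75 and Atg10 by 0.57, while Atg16l1 had a log2 difference of 0.03 (edgeR adjusted p = 0.819). The other uncalled gene was Tfeb (0.09, edgeR adjusted p = 0.513), named after its value was seen.

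The 5 transcription factors of myeloid activation were called higher on the reference gene scale, with rises of 1.40 for Cebpb, 1.26 for Hif1a and 0.92 for Irf8. With TMM 1 was called higher, and with the panel median 0 were higher and 1 lower. The 4 other tetraspanins rose by 0.33 (Cd37) to 0.95 (Cd53) on the reference gene scale. With TMM 0 of them were higher and 2 lower, and with the panel median 0 were higher and 3 lower. From SE to GLA-SE, Irf1 was called higher by edgeR (1.03, adjusted p = 0.0326, named after its value was seen), and no gene of the 7 lists other than the transcription factors was. From PBS to SE no gene of the 8 lists was called by edgeR, and the medians ran from 0.32 for the other cathepsins to 1.23 for the phagocytic receptors beside 0.51 for all genes.

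**Figure D5:**
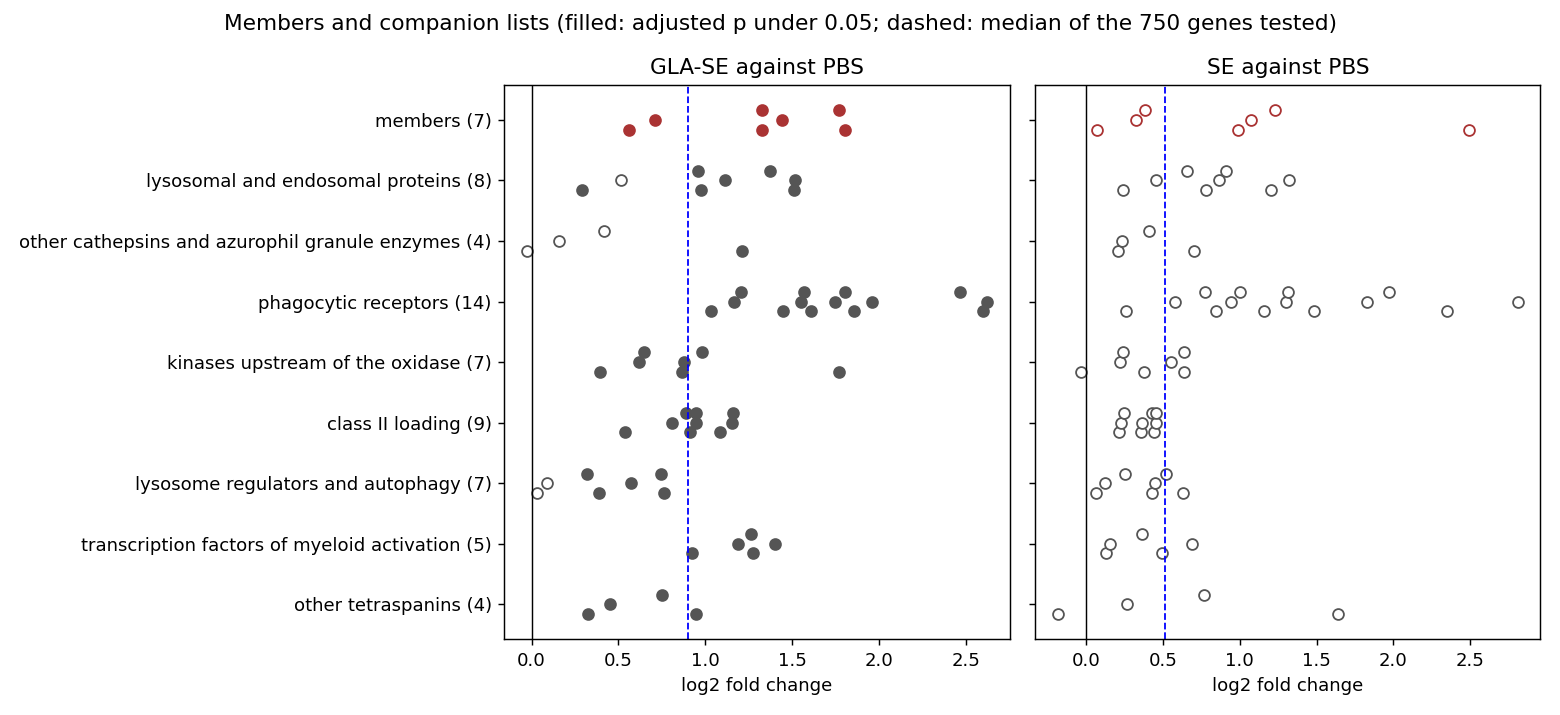
Log2 fold change of each gene (points, filled where edgeR's adjusted p was under 0.05) of the members and the 8 lists of related genes, from PBS to GLA-SE and from PBS to SE, with the median of the 750 genes as a dashed line (0.90 and 0.51). On this reference gene scale all 14 phagocytic receptors lie above the dashed line from PBS to GLA-SE while the 9 class II genes lie around it, and many calls end or turn when the panel itself sets the scale.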

How the data were processed

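The authors deposited 1 table of whole-number nCounter counts for 770 genes in 12 tumors. The methods describe normalization in nSolver, but the totals and the reference genes differed between tumors, so the deposited counts were taken as raw. The assay has no read alignment.

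The geNorm procedure kept 16 of the 20 reference genes over all 12 tumors, and each tumor was scaled to their geometric mean. The methods select reference genes automatically, and 1 set for all tumors gave each tumor 1 normalized count. The other 750 genes were compared with edgeR 4.0.16 (quasi-likelihood test, R 4.3.3) over the 8 tumors of each pair of groups, without covariates or a filter, with Benjamini-Hochberg adjustment over all 750 genes and a threshold of 0.05. The standard error is the log2 fold change over the square root of the F statistic, and the 95% confidence interval uses the t quantile. The two-sided exact permutation tests ran over 70 assignments of log2(normalized count + 1). Alternatives used limma 3.58.1, DESeq2 1.42.0, other scalings, a filter of 20 counts in 4 tumors and leaving out tumors. The fits were tested on simulated data. A log2 change of 1 was called in 61.1% of the changed genes from PBS to GLA-SE. It was called in 18.1% from PBS to SE and in 6.12% from SE to GLA-SE. For a log2 change of 2 the shares were 97.1%, 75.5% and 53.9%. In the comparisons with SE tumors, changes of this size were thus often missed. Python 3.11.15 with matplotlib 3.10.9 made the plots.

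Groups were taken from the labels, which number the mice within a group. The precision of each value is limited by its count and by 4 tumors per group. The members and lists were chosen with earlier results of these data known. Named genes are the members, in each list up to 3 with the largest called difference from PBS to GLA-SE and a mean of at least 20 in either group and the 1 with the smallest difference, and the 3 nearest patterns per member. Some genes that this rule picks are not reported here. Promoters and symbols were matched to RefSeq tables of GRCm38.p6, where 7 of 7 members had a symbol and 5 a promoter.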

Additional observations from a re-analysis of the deposited data

Results flagged for a closer look

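In 2 of the 21 sets of 4 tumors (7 members in 3 groups) a single tumor lay far from the others by Dixon's ratio, and chance alone flags about 5% of such sets, or 1.05 of 21. Both were in GLA-SE replicate 3, the tumor with the highest total count and the highest sum of neutrophil markers. Ctsl had a normalized count of 3754 there, against 2092 to 2266 in the other GLA-SE tumors, with a gap of 0.895 of the whole range. Cybb had 10794 there, against 6474 to 6688 in the others, with a gap of 0.95 of the range. Without this tumor the log2 fold change from PBS to GLA-SE was 1.52 for Ctsl and 1.11 for Cybb, and edgeR called both (adjusted p = 0.000177 and 6.29e-05). The relation of the neutrophil markers to these values was not tested.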

How the results depend on the processing

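The scaling decided the members' level, and the cause of the differences between scalings was not tested. From PBS to GLA-SE, all 7 members were called on the selected reference genes, on all 20, with limma, without any 1 tumor and with the replicate block. With the panel median 4 were called, 2 higher and 2 lower. TMM, no rescaling and DESeq2's own size factors gave 6 (Ctsh was lost without rescaling, at 0.26 with an edgeR adjusted p of 0.0981), and all 12 tumors in 1 fit gave 5, with Ctsl and Cd63 lost (edgeR adjusted p = 0.0935 and 0.0587). Without both GLA-SE replicate 3 and SE replicate 4, in 1 fit, 6 were called and Ctsl was not (1.52, edgeR adjusted p = 0.0894). The lower values of Ctsh and Ncf4 were -0.74 and -0.60 with the panel median, -0.36 and -0.22 with TMM, and -0.30 and -0.15 with DESeq2's own size factors.

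Over all 750 genes, the 516 calls of this comparison (513 higher) became 368 with the panel median (61 higher, 307 lower), 316 with TMM (148 and 168), 346 with DESeq2's own size factors (193 and 153) and 255 with all 12 tumors in 1 fit. From PBS to SE the number of members called was 0 under every alternative run, and over all genes the t-test on log2 values called 1. Directions turned for Ctsh (-0.14 with the panel median and with TMM, -0.0935 without rescaling and -0.0856 with DESeq2's own size factors), for Cybb (-0.0245, -0.0414 and -0.0046 with the panel median, TMM and no rescaling) and for Ncf4 (-0.35, -0.37, -0.32 and -0.31 in that order of scalings, and -0.0628 without both doubted tumors). Leaving out 1 tumor gave Ncf4 values from -0.0628 to 0.14, the lowest without SE replicate 4.

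From SE to GLA-SE, 0 members were called, and 2 (Cybb and Ncf4) with DESeq2 on the reference gene size factors, with all 12 tumors in 1 fit (edgeR adjusted p = 0.0164 and 0.0406) and without both doubted tumors. Leaving out 1 tumor gave 0 to 2, the latter without SE replicate 4. The difference of Ctsl turned to 0.29 with limma at either pseudocount and with the t-test on log2 values, to 0.37 with the replicate block and to 0.0709 without both doubted tumors, and ran from -1.09 to 0.32 without 1 tumor. Cd63 ran from -0.19 to 0.84 without 1 tumor, and had -0.29, -0.0316 and -0.0762 with the panel median, TMM and DESeq2's own size factors. Ctsh had -0.60, -0.19 and -0.27 in the same order, and with the panel median Ctss had -0.17 and Ncf4 -0.25. The 16 calls among all genes became 0 with the panel median, 3 with TMM, 89 without rescaling, 119 and 80 with DESeq2 on reference and own size factors (111 and 54 higher), 79 with all 12 tumors in 1 fit, 0 with the replicate block, 4 to 105 without 1 tumor (105 without SE replicate 4, and 4 without GLA-SE replicate 2, GLA-SE replicate 4 or SE replicate 3) and 195 without both doubted tumors.

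The main fits did not pair tumors by replicate number. Deviations of tumors with the same number had correlations of -0.254 to 0.194, which cannot show whether the mice were paired. With the number as a block the count of members called stayed at 7, 0 and 0, and Ctss from PBS to GLA-SE was 1.44 (edgeR adjusted p = 0.00433).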
